A study of Mus musculus with 24 samples.

Results

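D2.1 and D2A1 are mouse mammary tumor lines of the D2 series, derived from hyperplastic alveolar nodules of BALB/c mice, and 37 protein-coding genes were expressed in cultured D2.1 cells and nearly silent in cultured D2A1 cells. A gene was taken when it had 3 or fewer counts in each of the 3 cultured D2A1 libraries and 50 or more in each of the 3 cultured D2.1 libraries. The 37 were 0.173% of the 21397 protein-coding genes among the 35275 genes of the culture table. The genes were chosen by their culture counts, so these counts are given without a test, and the tumors, which the choice did not use, carry the comparisons.

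RNA-seq covered 6 libraries of cultured cells, 3 of each line, and 18 bulk tumor libraries. Each tumor grew from 1000000 D2.1 or D2A1 cells placed in the mammary fat pad of a female mouse and was taken at about 500 mm3. Hosts were BALB/c mice, which have a full immune system, or SCID-beige mice, which carry Prkdc scid and Lyst bg and lack mature T and B cells and have impaired NK cells. The 4 tumor groups were D2.1 in BALB/c (4 tumors), D2.1 in SCID-beige (5), D2A1 in BALB/c (4) and D2A1 in SCID-beige (5). Mice were 8 to 12 weeks old, and the time each of these tumors grew was not given in the sources used here. Each tumor library is a separate tumor, whereas nothing says that the culture libraries came from separate cultures. The p-values measure only the spread between these samples.

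Lines of common origin often differ by genes that are shut in the one and open in the other. Such a gene can serve as a tag of the expressing cells after they are mixed with other cells, as in a tumor, provided that the host cells around them do not use it. A gene read in a whole tumor can come from tumor cells or from vessels, fibroblasts, leukocytes and remnants of the fat pad. Fewer cells of a type and less RNA per cell cannot be told apart in such bulk samples, and neither can host cells and tumor cells as the source of a transcript.

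Library totals were 13566949 to 24818234 counts. Macrophage markers (8 genes, summed CPM, counts per 1000000 after TMM normalization) reached 847 to 2896 in tumors against 1.71 to 23.7 in culture. Fibroblast markers (6 genes) summed to 620 to 1387 CPM in D2.1 tumors and 127 to 214.2 in D2A1 tumors, and endothelial markers (8 genes) to 85.6 to 182 and 244 to 317. The T cell sum was 67.8 to 189 CPM in D2.1 BALB/c tumors and 5.43 to 13.5 in D2.1 SCID-beige tumors, and 7.42 to 24.9 and 0.738 to 3.26 in D2A1 tumors. Among D2.1 BALB/c tumors, replicate 1 had 388 CPM of milk protein transcripts and replicate 4 had 122 CPM of skin keratinocyte transcripts, against 0.572 and 0.286 in replicate 3. Mammary epithelial keratins and adhesion genes (6 genes) summed to 2492 to 5086 CPM in cultured D2.1 cells and to 369 to 1199 in D2.1 tumors. In D2A1 they summed to 139 to 363 CPM in culture and to 442 to 848 in tumors, so the lines overlapped in tumors.

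The stretches before the start sites of 4 of the genes are shown because these genes lie toward the ends of the range of tumor over culture levels: Pdlim4 and S1pr3 had more than 10 times their culture level in D2.1 tumors, and Krt13 and Rtn4rl2 had less than 0.25 of it. Each is the 250 bases upstream of a RefSeq start on GRCm38.p6, 5′ to 3′ on the strand of the gene, with CG dinucleotides, the sites of DNA methylation in mammals, in capitals. Pdlim4 (chr11:54069018-54069267, minus strand) held 21 of them, S1pr3 (chr13:51408368-51408617, plus strand) 9, Rtn4rl2 (chr2:84886693-84886942, minus strand) 29 and Krt13 (chr11:100121567-100121816, minus strand) 2.
Pdlim4: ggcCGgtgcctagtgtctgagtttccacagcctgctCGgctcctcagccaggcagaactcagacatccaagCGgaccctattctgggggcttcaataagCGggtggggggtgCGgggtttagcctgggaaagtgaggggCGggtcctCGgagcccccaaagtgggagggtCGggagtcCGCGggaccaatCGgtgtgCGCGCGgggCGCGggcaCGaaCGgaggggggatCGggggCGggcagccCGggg
S1pr3: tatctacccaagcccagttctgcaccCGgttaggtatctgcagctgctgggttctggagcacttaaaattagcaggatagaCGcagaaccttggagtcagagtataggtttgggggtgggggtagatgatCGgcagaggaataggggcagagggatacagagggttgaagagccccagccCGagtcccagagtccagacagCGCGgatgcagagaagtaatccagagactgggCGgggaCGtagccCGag
Rtn4rl2: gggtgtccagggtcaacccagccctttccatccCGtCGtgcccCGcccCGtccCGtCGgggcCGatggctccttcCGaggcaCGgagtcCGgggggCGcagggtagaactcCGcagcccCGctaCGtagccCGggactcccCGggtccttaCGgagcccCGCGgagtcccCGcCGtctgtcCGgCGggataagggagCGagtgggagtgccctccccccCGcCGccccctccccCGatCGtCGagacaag
Krt13: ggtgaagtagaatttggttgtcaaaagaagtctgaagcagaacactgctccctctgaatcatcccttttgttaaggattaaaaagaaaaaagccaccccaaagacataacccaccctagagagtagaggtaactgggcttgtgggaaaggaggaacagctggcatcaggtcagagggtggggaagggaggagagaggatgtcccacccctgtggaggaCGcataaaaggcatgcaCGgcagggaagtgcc
A stretch with more and a stretch with fewer CG dinucleotides thus stood on each side. DNA methylation was not measured.

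In culture the genes sat at or near nothing in D2A1 cells. Of the 37, 9 had 0 counts in all 3 cultured D2A1 libraries, among them Lama4, Pdlim4, S1pr3 and P2ry1. Among the genes nearest to the upper limit in D2A1 cells, Edil3 had 3, 1 and 0 counts there against 300, 327 and 435 in D2.1 cells, and Gstt1 had 3, 3 and 3 against 261, 230 and 478. Just beyond that limit, Sema6d, Mrgprf and Popdc3 had at most 4 counts in D2A1 cells and at least 308, 193 and 125 in D2.1 cells. Neu2, Prss8 and Rtl8a had exactly 50 counts in their lowest D2.1 library, while Serpinb1a, Gabrp and Cds1 stopped at 49, 47 and 45. By deposited FPKM (fragments scaled to gene length and library depth), which allows genes to be compared within a table, Gstt1 at 14.7 and Rtn4rl2 at 13.5 were the most abundant in cultured D2.1 cells and Pappa at 0.43 the least. Cultured D2.1 replicate 3 had the highest CPM of the 3 for 18 genes and the lowest for 16, with no count over all genes made beside it.

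**Figure D1:**
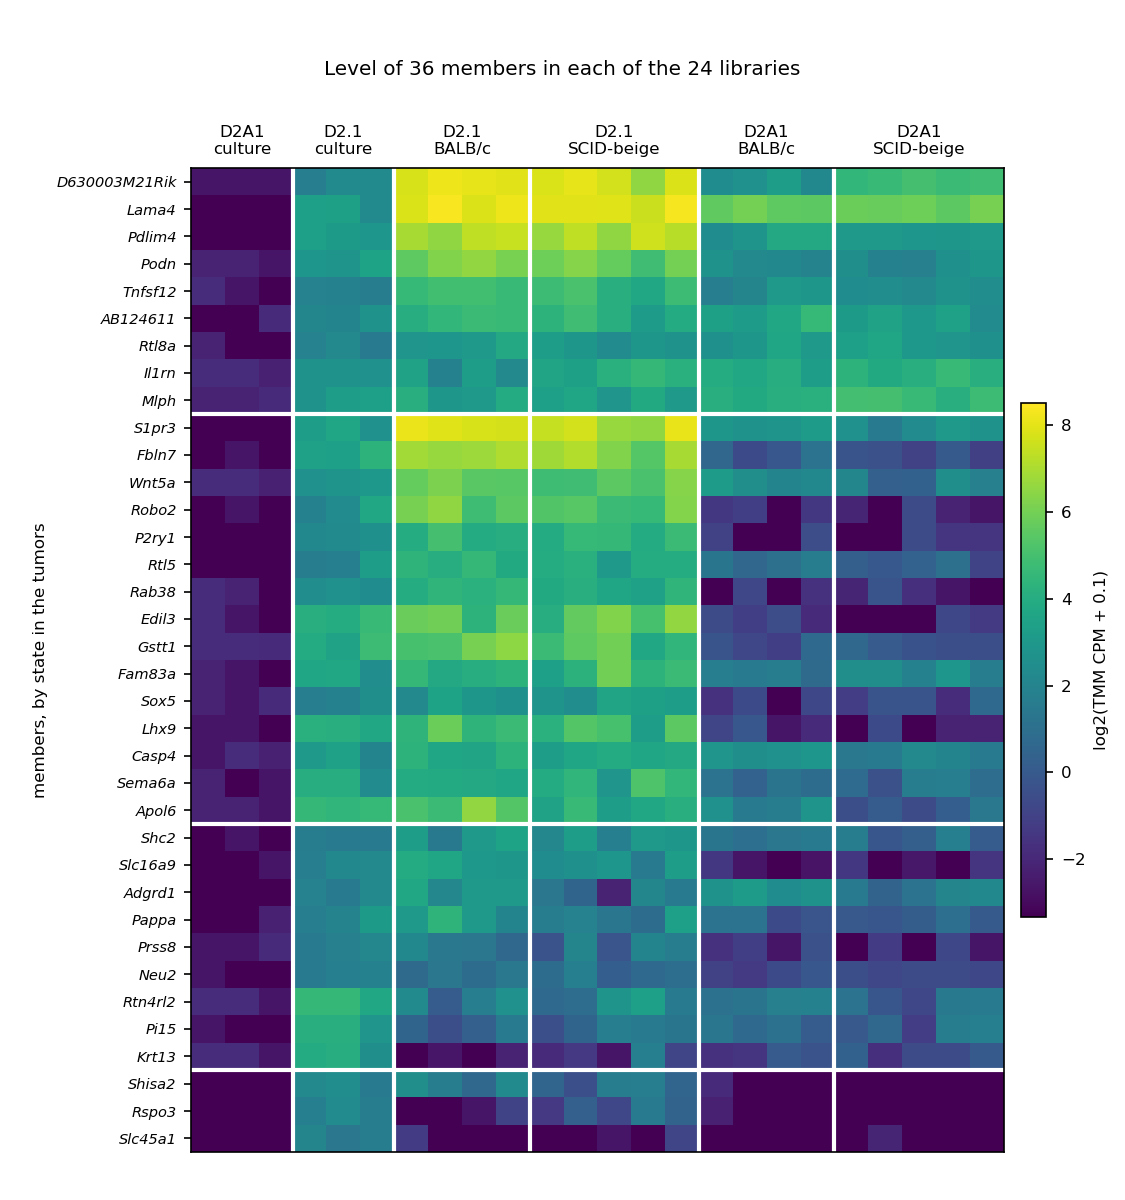
Level of 36 of the 37 genes (rows) in each of the 24 libraries (columns, by group) as log2 of TMM-normalized CPM plus 0.1. White lines part the groups and the states in the tumors, from top to bottom on in tumors of both lines (9 of the genes drawn), on in D2.1 tumors and between in D2A1 tumors (15), between in both (9), and between in D2.1 tumors and at the floor in D2A1 tumors (3). Most rows stay high in the D2.1 tumor columns, and the upper rows are also high in the D2A1 tumor columns.

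Each gene was given a state in the tumors of a line with the thresholds of the choice: on with 50 or more counts in every tumor, at the floor with 3 or fewer in every tumor, and otherwise between. In the 9 D2.1 tumors 25 of the 37 were on, 12 between and 0 at the floor. Of the 10009 protein-coding genes with 50 or more counts in each cultured D2.1 library, 94.9% were on in the D2.1 tumors, 4.99% between and 0.0799% at the floor. These genes were not matched to the 37 by level in culture. Of the 37, 13 had under 60 counts in some cultured D2.1 library, close to the limit for on, so the shares cannot be compared directly. In the 9 D2A1 tumors 10 of the 37 were on, 24 between and 3 at the floor, where 93.8% of the same 10009 genes were on, 6.07% between and 0.16% at the floor. Read strictly, 0 of the 37 were both on in every D2.1 tumor and at the floor in every D2A1 tumor. In D2A1 tumors 25 of the 37 had over 3 counts in every tumor, although none of them exceeded 3 in any cultured D2A1 library.

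A looser measure set 6 genes apart: Robo2, Edil3, P2ry1, Fbln7, Rab38 and Lhx9, whose lowest D2.1 tumor count was at least 10 times their highest D2A1 tumor count. Such a gap was met by 32 of the 10009 genes on in cultured D2.1 cells, or 0.32%. These 6 cover a guidance receptor, a pair of matrix proteins, a nucleotide receptor, a trafficking GTPase and a transcription factor, and at least 1 D2A1 tumor held more than 3 counts of each.

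Robo2, a receptor for Slit guidance proteins at chr16:73891839-74411825 (minus strand), had 1295, 1481, 489 and 730 counts in D2.1 BALB/c tumors and 661, 761, 456, 415 and 1226 in D2.1 SCID-beige tumors. It had 5, 6, 0 and 5 counts in D2A1 BALB/c tumors and 2, 0, 8, 2 and 1 in D2A1 SCID-beige tumors. Every D2.1 tumor was far above every D2A1 tumor in either host. The log2 fold change between lines was 7.92 ± 0.58 (SE) in BALB/c and 7.89 ± 0.58 in SCID-beige mice.

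Edil3, a secreted integrin-binding protein of the matrix at chr13:88821472-89323223 (plus strand), had 1046, 980, 343 and 887 counts in D2.1 BALB/c tumors and 279, 888, 1317, 580 and 1520 in D2.1 SCID-beige tumors. D2A1 tumors had 10, 6, 10 and 3 in BALB/c and 0, 0, 0, 8 and 5 in SCID-beige mice. The groups did not overlap, with the lowest D2.1 tumor at 279 and the highest D2A1 tumor at 10. The log2 fold changes were 6.79 ± 0.49 and 8.28 ± 0.73.

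Rab38, a small GTPase of lysosome-related organelles at chr7:88430273-88491572 (plus strand), had 306, 348, 330 and 374 counts in D2.1 tumors of BALB/c and 244, 296, 210, 184 and 330 in those of SCID-beige mice. D2A1 tumors had 0, 8, 0 and 4, and 2, 11, 3, 1 and 0. P2ry1, a receptor for extracellular ADP at chr3:61002795-61008982 (plus strand), ran from 256 to 530 counts in D2.1 tumors and from 0 to 11 in D2A1 tumors. In both genes D2A1 tumors with 0 counts stood beside others with 11. Lhx9, a LIM homeodomain transcription factor, ranged from 167 to 938 counts in D2.1 tumors and from 0 to 14 in D2A1 tumors, with the highest D2.1 value in BALB/c replicate 2. Fbln7, a fibulin of the matrix, had the highest D2A1 values of the 6, at 25, 9, 14 and 39 in BALB/c and 11, 10, 6, 15 and 6 in SCID-beige mice, below 726 to 2440 in D2.1 tumors. The log2 fold changes of the 6 ran from 6.01 to 8.28 and are a description, since the 6 were picked for their gap between these same tumors.

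**Figure D2:**
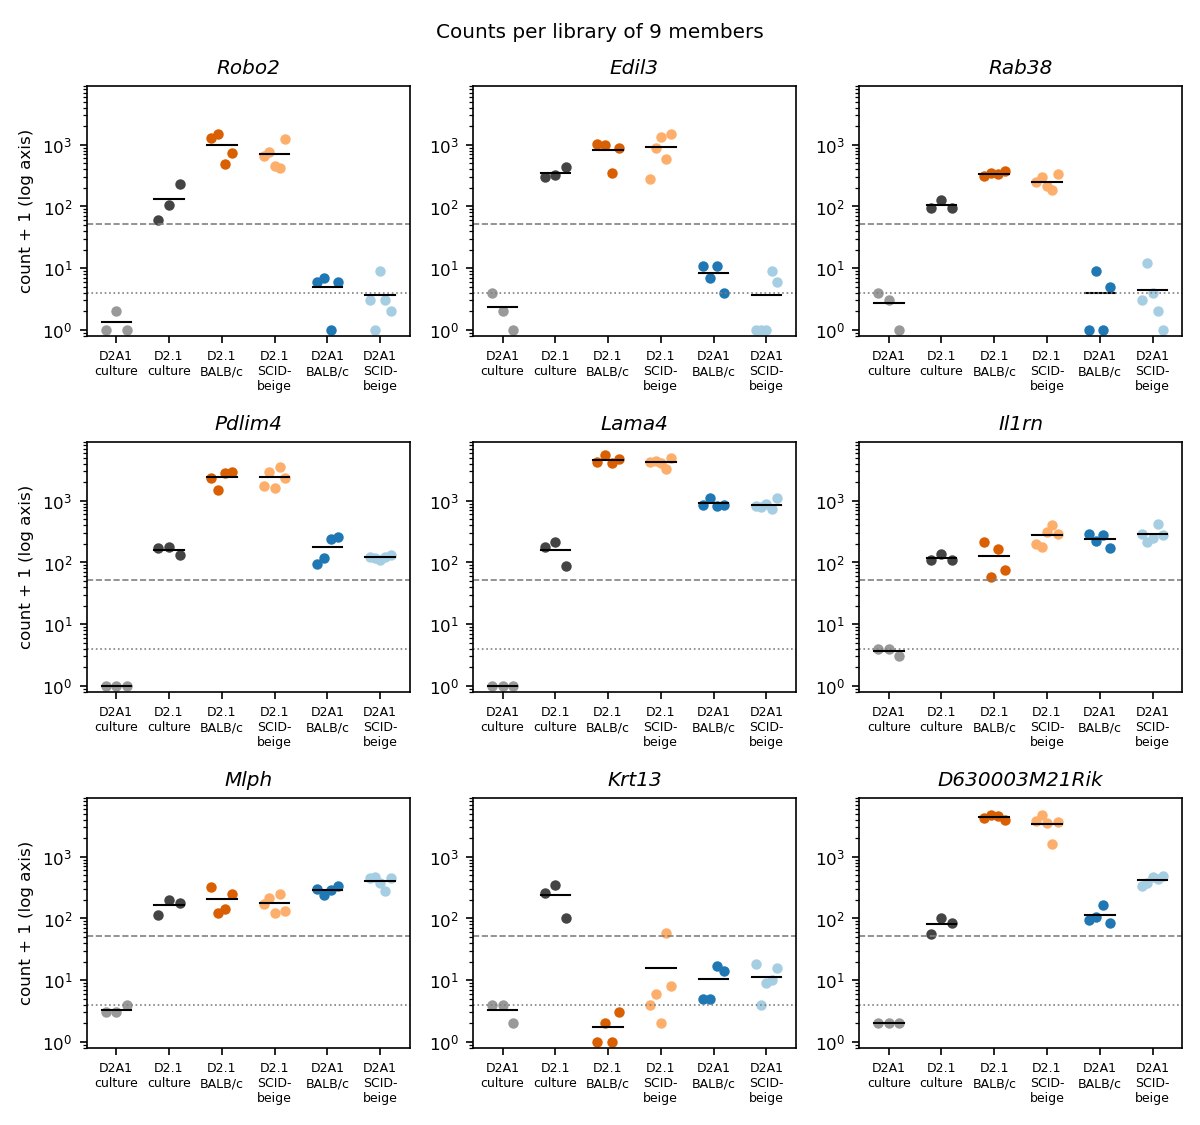
Counts plus 1 (log axis) of 9 genes in each library of the 6 groups, with black bars at the group means, a dotted line at the floor of 3 counts and a dashed line at 50 counts. Robo2, Edil3 and Rab38 separate the tumors of the lines, Pdlim4 and Lama4 are present in D2A1 tumors at lower counts, Il1rn and Mlph are as high or higher in D2A1 tumors, Krt13 drops from culture to tumors, and D630003M21Rik is the gene whose level in D2A1 tumors differs between hosts.

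Across the list the difference between the lines was kept in tumors for most genes. In BALB/c mice 27 genes were higher in D2.1 than in D2A1 tumors and 0 lower, where 16.8% of all 14953 genes tested were higher and 15.8% lower (edgeR's quasi-likelihood test, Benjamini-Hochberg adjusted over all of them). In SCID-beige mice 27 were higher and 1 lower, against 17.2% and 14.8% of 14355 genes. The same 26 genes were higher in both hosts, Shisa2 was called in BALB/c mice alone and AB124611 in SCID-beige mice alone, and 9 were called higher in neither. The filter on low counts kept 34 of the 37 in BALB/c and 33 in SCID-beige mice. Of those, 20 and 18 passed in the tumors of both lines, and 14 and 15 passed through the tumors of a single line, so that many had to differ to be tested and the counts of tested genes carry no weight of their own. Within D2A1 tumors 12 genes did not pass the filter, namely Edil3, Lhx9, Neu2, P2ry1, Prss8, Rab38, Robo2, Rspo3, Shisa2, Slc16a9, Slc45a1 and Sox5. Among the genes that passed in the tumors of both lines, 14 of 20 were higher in BALB/c and 15 of 18 in SCID-beige mice. The median log2 fold change of the tested genes was 3.05 in BALB/c and 3.33 in SCID-beige mice, beside -0.02 and 0.02 over all genes tested. These medians include the genes that passed through a single line, so they carry no weight of their own either. Counted by overlap of CPM instead, 26 of the 37 had every D2.1 tumor above every D2A1 tumor in each host, against 16.5% of the genes tested in BALB/c and 12% in SCID-beige mice. In each host 1 had every D2.1 tumor below, Krt13 in BALB/c (18.1% of the genes tested) and Mlph in SCID-beige mice (11.8%). Krt13 in BALB/c mice, and Rspo3 and Shisa2 among the 26 in SCID-beige mice, did not pass the filter, so these shares do not cover them. Fibroblast markers moved with the line as given above, and their part in these differences was not tested.

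**Figure D3:**
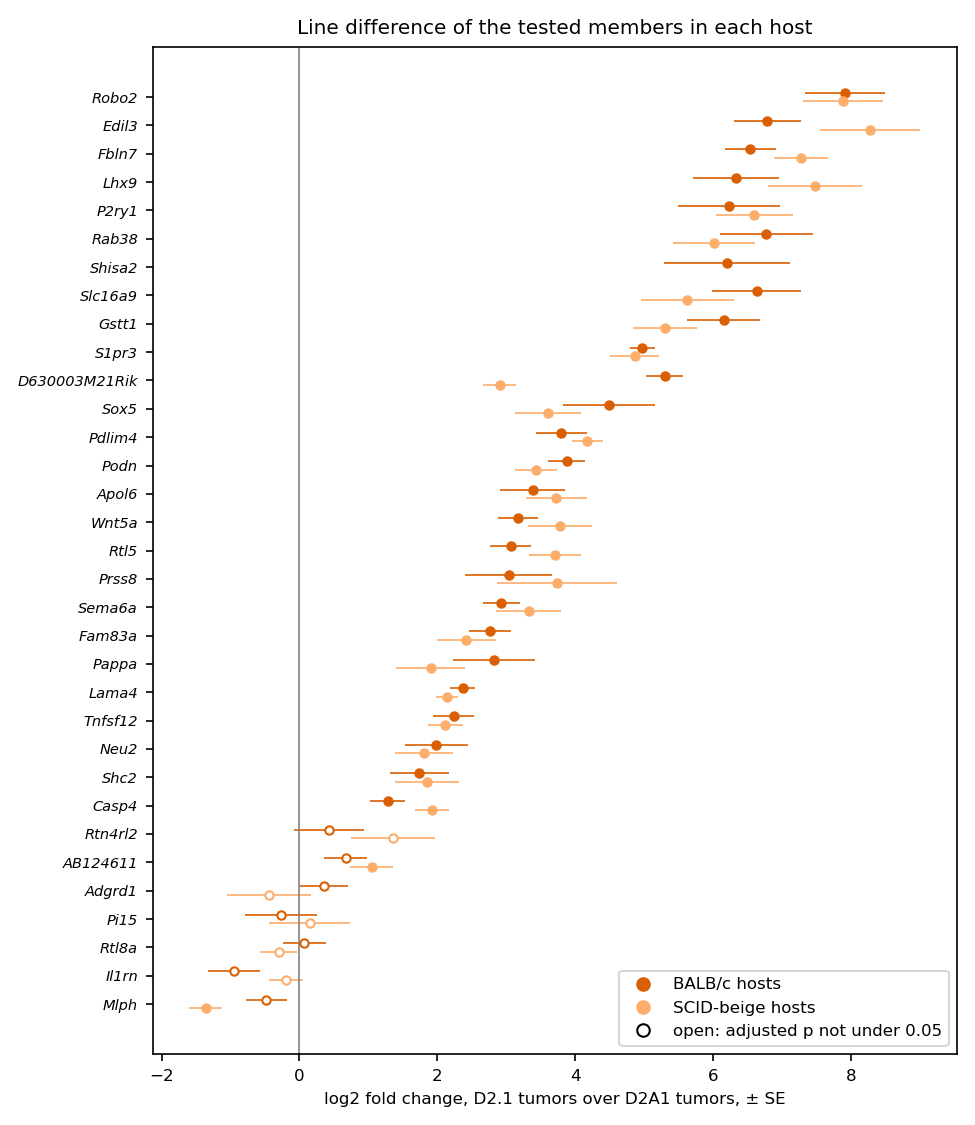
Log2 fold change of D2.1 over D2A1 tumors with its standard error for the genes drawn that passed the filter, in BALB/c and SCID-beige hosts, colored by host, from edgeR. Filled points have an adjusted p under 0.05. Robo2 lies near 7.9 in both hosts, D630003M21Rik differs most clearly between hosts (5.30 and 2.91), and the bottom rows hold the genes with no call or, for Mlph in SCID-beige mice, a lower level in D2.1 tumors.

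Among matrix proteins, all 4 of the list were higher in D2.1 tumors in both hosts. Edil3 and Fbln7 passed the filter through the D2.1 tumors alone, so their calls carry no weight of their own. Of the whole list of matrix genes, 76 of 193 tested were higher and 30 lower in BALB/c mice (median log2 fold change 0.445), and 62 and 46 of 186 in SCID-beige mice (median 0.192). Lama4, the laminin chain of vessel and fat cell basement membranes at chr10:38965515-39110188 (plus strand), had 4299, 5487, 4119 and 4695 counts in D2.1 BALB/c tumors and 4300, 4407, 4155, 3229 and 4990 in D2.1 SCID-beige tumors. D2A1 tumors had 870, 1098, 810 and 843, and 834, 796, 872, 748 and 1093. The groups were apart and each was narrow, with log2 fold changes of 2.37 ± 0.18 (adjusted p = 8.86e-06) and 2.14 ± 0.16 (adjusted p = 5.96e-07). Podn, a small leucine-rich proteoglycan, had 505 to 1651 counts in D2.1 tumors and 50 to 124 in D2A1 tumors, with log2 fold changes of 3.88 ± 0.26 and 3.44 ± 0.30 (adjusted p = 4.08e-06 and 1.82e-06). Part of Podn overlaps Scp2 on the same strand in the annotation.

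Among secreted ligands, Wnt5a and Tnfsf12 were higher in D2.1 tumors in both hosts. Of the ligand list, 57 of 182 tested genes were higher and 29 lower in BALB/c mice and 53 and 27 of 167 in SCID-beige mice, with medians of 0.331 and 0.35. Wnt5a, a ligand that mostly signals without beta-catenin, at chr14:28504750-28527448 (plus strand), had 52.5, 70.8, 44.4 and 42.9 CPM in D2.1 BALB/c tumors and 28.3, 29.7, 46.2, 33.9 and 80.6 CPM in D2.1 SCID-beige tumors. D2A1 tumors had 8.86, 5.68, 3.96 and 4.44 CPM in BALB/c and 4.14, 1.14, 1.16, 5.78 and 3.44 CPM in SCID-beige mice. These groups did not overlap, and the log2 fold changes were 3.17 ± 0.29 (adjusted p = 2.66e-05) and 3.79 ± 0.46 (adjusted p = 3.66e-05). Tnfsf12, the cytokine TWEAK, had 226 to 596 counts in D2.1 and 58 to 138 in D2A1 tumors, and it shares exons with the read-through gene Tnfsfm13, between which reads may be split. Rspo3, a ligand that strengthens Wnt signaling, was too low to be tested and is described with the genes that fell.

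Among surface receptors, S1pr3 was the most abundant by FPKM in D2.1 tumors (44.8), and P2ry1 and Robo2 are described above. S1pr3, a receptor for sphingosine 1-phosphate at chr13:51408639-51422797 (plus strand), had 5365, 3991, 3883 and 3374 counts in D2.1 BALB/c tumors and 3009, 3585, 1748, 1609 and 4318 in D2.1 SCID-beige tumors. D2A1 tumors had 134, 111, 116 and 168, and 93, 43, 76, 129 and 109. Every D2.1 tumor was above every D2A1 tumor, and the log2 fold changes were 4.97 ± 0.18 (adjusted p = 3e-07) and 4.87 ± 0.36 (adjusted p = 4.13e-07). Of the receptor list, 166 of 424 tested genes were higher and 48 lower in BALB/c mice and 162 and 52 of 384 in SCID-beige mice, with medians of 0.538 and 0.565. Il1rn is in this list by its symbol but encodes a secreted protein, and it is described further on. The adhesion receptor Adgrd1 overlapped between lines in both hosts, with 70 to 259 and 88 to 147 counts in BALB/c and 2 to 72 and 19 to 73 in SCID-beige mice (adjusted p = 0.473 and 0.628).

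Both transcription factors, Lhx9 and Sox5, were higher in D2.1 tumors, and both passed the filter through the D2.1 tumors alone. Sox5, a SOX family factor, had 88 to 207 counts in D2.1 and 0 to 25 in D2A1 tumors, with log2 fold changes of 4.50 ± 0.67 and 3.61 ± 0.48. Antisense genes overlap Sox5 in the annotation, and the strand setting of the counts was not given in the sources used here. Of all transcription factors tested, 186 of 736 were higher and 62 lower in BALB/c mice and 172 and 65 of 705 in SCID-beige mice, with medians of 0.214 in both.

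Of the transporters, Slc16a9 was higher in D2.1 tumors, and so was Gstt1, an enzyme that joins glutathione to electrophiles. Slc16a9, of the monocarboxylate transporter family, had 48 to 297 counts in D2.1 and 0 to 5 in D2A1 tumors, and passed the filter through the D2.1 tumors alone. Gstt1 had 624, 557, 1191 and 1459 counts in D2.1 BALB/c and 447, 821, 1093, 223 and 345 in D2.1 SCID-beige tumors, above 6 to 28 in D2A1 tumors. Its level thus varied several-fold among D2.1 tumors while its groups did not overlap, and the log2 fold changes were 6.16 ± 0.53 (adjusted p = 1.82e-05) and 5.31 ± 0.46 (adjusted p = 1.8e-06). In BALB/c mice Gstt1 passed the filter through the D2.1 tumors alone, so its p-value there carries no weight of its own. Of the list of channels and transporters, 90 of 419 tested genes were higher and 68 lower in BALB/c mice and 94 and 58 of 404 in SCID-beige mice (medians 0.103 and 0.161), and of the metabolic enzymes 81 and 76 of 351, and 88 and 73 of 334 (medians 0.12 and 0.0718).

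Pdlim4, an actin-associated PDZ and LIM domain protein at chr11:54054928-54069014 (minus strand), had the highest FPKM of the 37 in D2.1 tumors, at 159.7. It had 2383, 1486, 2879 and 2944 counts in D2.1 BALB/c tumors and 1731, 2927, 1587, 3477 and 2361 in D2.1 SCID-beige tumors, and 94, 116, 239 and 256, and 121, 119, 107, 122 and 133 in D2A1 tumors. The lowest D2.1 count was 5.8 times the highest D2A1 count, and the log2 fold changes were 3.80 ± 0.37 (adjusted p = 4.01e-05) and 4.18 ± 0.23 (adjusted p = 3.63e-08). Of the cytoskeletal list, 48 of 202 tested genes were higher and 26 lower in BALB/c mice and 45 and 36 of 191 in SCID-beige mice, with medians of 0.176 and 0.0959. No member fell in the list of cell adhesion genes, where 48 and 20 of 151, and 48 and 27 of 143, were higher and lower, with medians of 0.414 and 0.321.

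Further genes were higher in D2.1 tumors in both hosts. Casp4, the inflammatory caspase that senses intracellular lipopolysaccharide, had 164 to 381 counts in D2.1 and 38 to 135 in D2A1 tumors, with log2 fold changes of 1.28 ± 0.25 and 1.92 ± 0.25 (adjusted p = 0.00332 and 5.67e-05). In BALB/c mice this call and that of Shc2 were lost without D2.1 replicates 1 and 4 together, at 0.85 (adjusted p = 0.0538) and 1.14 (adjusted p = 0.128). Sema6a, a transmembrane semaphorin, had 122 to 643 and 10 to 52 counts, and Fam83a, a signaling protein downstream of growth factor receptors, 170 to 1073 and 29 to 120. The retrotransposon-derived gene Rtl5 had 137 to 402 and 7 to 57. The membrane-anchored epithelial protease Prss8 (12 to 85 and 0 to 12 counts), the cytosolic sialidase Neu2 (18 to 58 and 5 to 15), the adaptor Shc2 (43 to 186 and 12 to 54) and the protease of IGF binding proteins Pappa (30 to 336 and 9 to 38) were low in tumors of both lines. Their adjusted p-values ran from 0.00443 to 0.0105. Prss8 and Neu2, and Pappa in BALB/c mice, passed the filter through the D2.1 tumors alone, so their p-values there carry no weight. So did Rtl5 in SCID-beige mice. Prss8 and Neu2 overlap Kat8 and Ngef on the opposite strand, and Rtl5 overlaps Nhsl2.

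**Figure D4:**
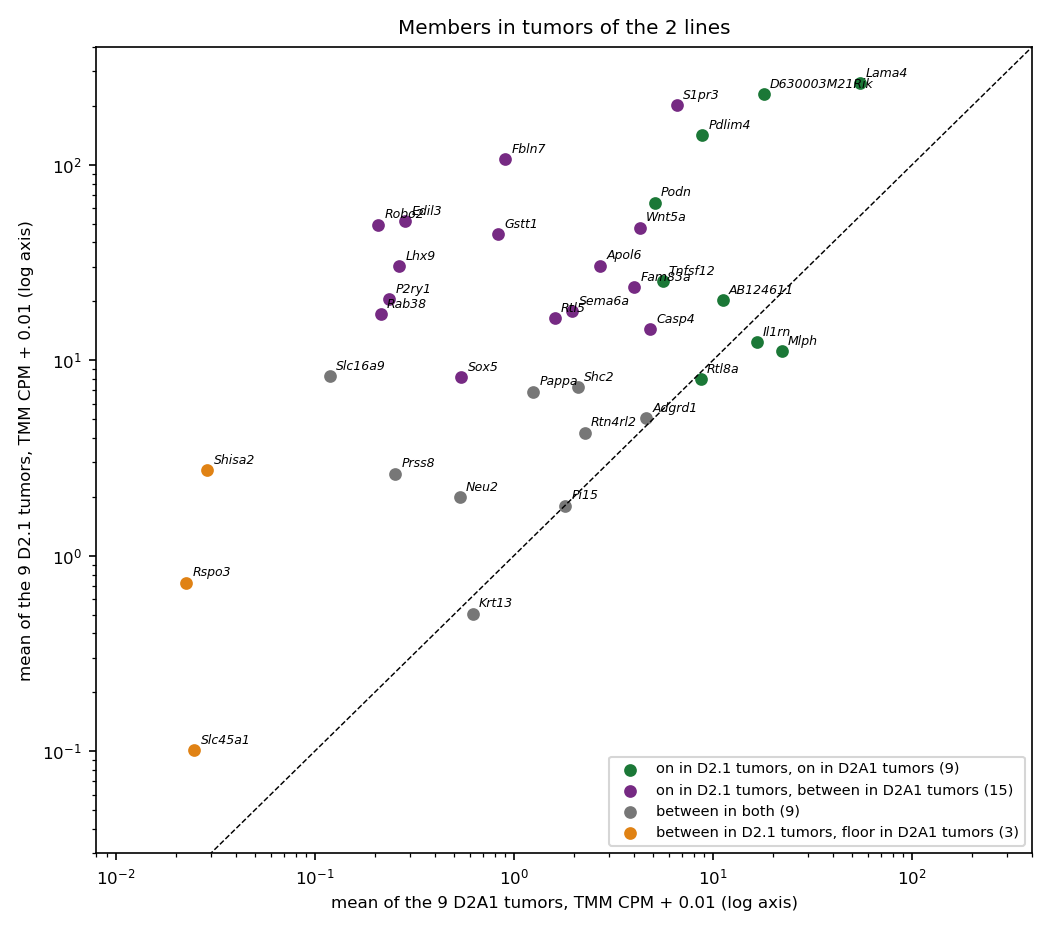
Mean TMM-normalized CPM plus 0.01 of the 9 D2A1 tumors (x, log axis) and the 9 D2.1 tumors (y, log axis) for 36 of the 37 genes, colored by state, with a dashed line at equal levels. Robo2, Edil3, P2ry1, Rab38 and Lhx9 lie far above the line, and Il1rn, Mlph, Rtl8a, Pi15 and Krt13 lie near or under it.

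The 10 genes on in all 9 D2A1 tumors included Lama4, Il1rn, Mlph, Pdlim4, AB124611, Rtl8a, Tnfsf12, D630003M21Rik and Podn. By mean FPKM over D2A1 tumors Lama4 led with 21.6, and Il1rn had 11.9 and Mlph 11.5. As a share of the D2.1 tumor mean CPM, their D2A1 tumor means ran from 6.22% for Pdlim4 through 20.9% for Lama4 to 199% for Mlph. Endothelial markers were higher in D2A1 than in D2.1 tumors. Pericyte markers summed to 310 to 731 CPM in D2A1 tumors and to 369 to 766 in D2.1 tumors. The part of either set of markers in these values was not tested.

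Il1rn, the secreted antagonist of the interleukin-1 receptor, was found in tumors of both lines at overlapping CPM. D2.1 tumors had 11.1, 3.58, 9.49 and 4.68 CPM in BALB/c and 11.9, 10.3, 18.2, 23.5 and 18.1 CPM in SCID-beige mice. D2A1 tumors had 16.1, 13.3, 16.5 and 9.38 CPM in BALB/c and 19.8, 14.2, 16.7, 25.7 and 17.4 CPM in SCID-beige mice. The lines overlapped in both hosts (log2 fold change -0.95 ± 0.38, adjusted p = 0.08, and -0.20 ± 0.25, adjusted p = 0.584). In BALB/c mice Il1rn was called lower with all libraries by DESeq2 (adjusted p = 0.0491) and in a fit of all tumors (adjusted p = 0.0349), and by edgeR without D2.1 replicate 1 (-1.24, adjusted p = 0.0404). Macrophage markers were present in every tumor and their part was not tested.

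Mlph, melanophilin, which ties Rab27a on melanosomes to myosin Va, was on at 112 to 200 counts in cultured D2.1 cells and at 2 to 3 in cultured D2A1 cells, and in tumors this order turned. D2.1 SCID-beige tumors had 10.1, 12.3, 7.02, 14.3 and 8.44 CPM and D2A1 SCID-beige tumors 30.8, 31.8, 25.6, 17.3 and 27.3 CPM, so that every D2A1 tumor was higher. The log2 fold change was -1.36 ± 0.24 (adjusted p = 0.000768), with a range of -1.55 to -1.24 when each tumor was left out in turn. In BALB/c mice the groups overlapped, with 17.1, 7.53, 7.95 and 15.3 against 17.1, 14.4, 16.9 and 18.1 CPM (-0.48 ± 0.30, adjusted p = 0.25), and without D2.1 replicates 1 and 4 together the change was -1.15 (adjusted p = 0.0148). Melanophilin lies at chr1:90915085-90951142 (plus strand).

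Rtl8a, a retrotransposon-derived gene of the X chromosome with the near-identical neighbors Rtl8b and Rtl8c, between which reads may be split, had 88 to 221 counts in D2.1 and 99 to 210 in D2A1 tumors. AB124611 had 157 to 517 and 82 to 442 counts, with log2 fold changes of 0.67 ± 0.31 (adjusted p = 0.127) and 1.05 ± 0.30 (adjusted p = 0.018), and the latter call was lost without D2.1 SCID-beige replicate 2 (0.76, adjusted p = 0.0682) while the former was made without D2A1 BALB/c replicate 4 (1.03, adjusted p = 0.0145). Both genes were thus on in tumors of both lines with ranges that overlapped.

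In 5 genes, a smaller group, every D2.1 tumor was below every cultured D2.1 library in CPM, namely Krt13, Slc45a1, Rspo3, Pi15 and Rtn4rl2, where 26.3% of the 10009 genes did so. The same 5 had a tumor mean of at most 0.25 of the culture mean, where the background was 2.84%. Culture and tumor counts come from separate tables made with different gene lengths, which limits such ratios. The 10009 genes were not matched by level in culture here either.

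Krt13, a keratin of stratified epithelium at chr11:100117327-100121566 (minus strand), had 262, 344 and 102 counts in cultured D2.1 cells. In D2.1 tumors it had 0, 1, 0 and 2 counts in BALB/c and 3, 5, 1, 57 and 7 in SCID-beige mice, and in D2A1 tumors 4, 4, 16 and 13, and 17, 3, 8, 9 and 15. The D2.1 tumors in BALB/c mice were all below the D2A1 tumors, and a single D2.1 tumor, SCID-beige replicate 4, stood out with 57. Keratin genes are similar in sequence, and reads from other keratins could be counted here. Krt13 did not pass the filter in the comparison of lines in either host.

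Rspo3 had 56, 105 and 53 counts in cultured D2.1 cells, 0, 0, 1 and 7 in D2.1 BALB/c tumors and 5, 20, 8, 48 and 20 in D2.1 SCID-beige tumors. D2A1 tumors had 2, 0, 0 and 0, and 0 in all 5 SCID-beige mice. D2.1 SCID-beige replicate 4 again had the most, and the SCID-beige mean of D2.1 tumors was at least 5.45-fold higher than that of D2A1 tumors, taking a floor of 3 counts per library. Slc45a1, a proton-coupled sugar transporter, had 69, 51 and 53 counts in culture and was at 0 in 6 of the 9 D2.1 tumors, with 6, 1 and 7 in the others. Its D2A1 tumors had 0 counts in 8 and 2 in the ninth.

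Pi15, a secreted peptidase inhibitor, went from 285, 345 and 124 counts in culture to 10 to 56 in D2.1 tumors, and D2A1 tumors had 5 to 55. Rtn4rl2, a receptor of the Nogo receptor family, went from 397, 488 and 232 to 16 to 174, and D2A1 tumors had 7 to 66. In both genes the lines overlapped in tumors of either host, and the difference did not pass the test (adjusted p = 0.735 and 0.871 for Pi15, 0.552 and 0.107 for Rtn4rl2). Shisa2, which holds back receptors of the Wnt and FGF pathways, fell less, from 51 to 112 counts in culture to 11 to 106 in D2.1 tumors, and it was at 0 in 8 D2A1 tumors and at 3 in the ninth. It passed the filter in BALB/c mice through the D2.1 tumors and did not in SCID-beige mice, where D2.1 tumors had 11 to 56 counts against 0 in all 5 D2A1 tumors, a mean at least 8.78-fold higher.

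**Figure D5:**
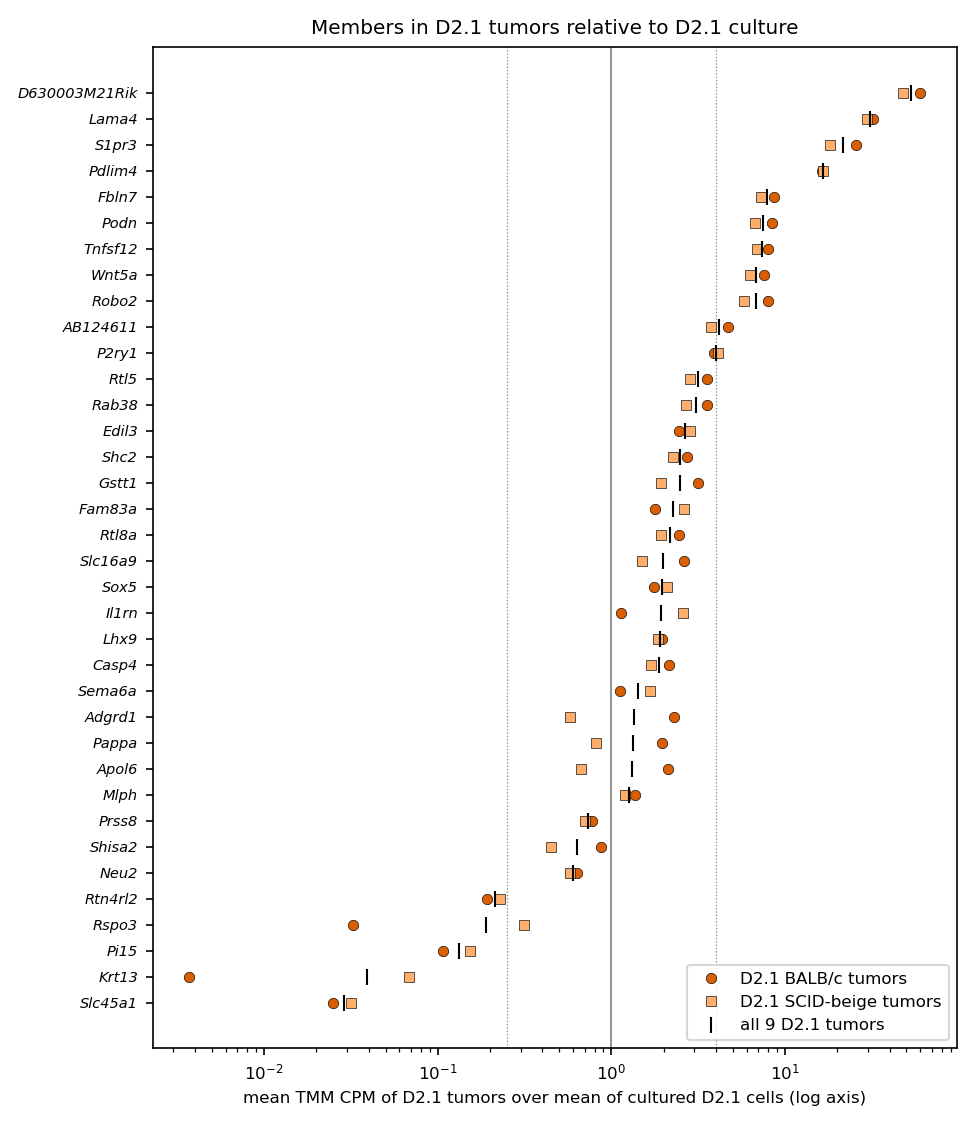
Mean TMM-normalized CPM of D2.1 BALB/c tumors (circles), D2.1 SCID-beige tumors (squares) and all 9 D2.1 tumors (ticks) divided by the mean of the 3 cultured D2.1 libraries, on a log axis, for 36 of the 37 genes. Vertical lines mark 0.25, 1 and 4. The ratios run from 0.0287 for Slc45a1 to 53.4 for D630003M21Rik. Krt13 and Rspo3 lie much lower in BALB/c than in SCID-beige hosts, in Krt13 mainly through SCID-beige replicate 4. Both had few counts in D2.1 tumors and did not pass the filter for the comparison of hosts there.

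More of the genes had a higher than a lower level in D2.1 tumors than in culture. The ratio of the D2.1 tumor mean to the culture mean had a median of 2.17 over the 37, against 0.883 over the 10009 genes, and exceeded 1 in 29. It was at least 4 in 12 genes, or 32.4%, where the background was 2.52%, and in 14 genes every D2.1 tumor was above every cultured library, where the background was 16%. No test was made, since the culture values chose the genes. The 10009 genes were not matched to the 37 by level in culture, so these shares and medians cannot be compared directly.

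The ratio was highest in D630003M21Rik (53.4), Lama4 (30.7), S1pr3 (21.6) and Pdlim4 (16.5), and was also high in Fbln7 (7.85), Podn (7.49), Tnfsf12 (7.37), Wnt5a (6.83) and Robo2 (6.80). Lama4 had 10.2, 10.4 and 4.84 CPM in cultured D2.1 cells and 187 CPM or more in every D2.1 tumor, and S1pr3 had 167, 250 and 108 counts in culture and 1609 or more in every D2.1 tumor. Lhx9, Edil3 and Gstt1 changed less, with ratios of 1.90, 2.66 and 2.47. The fibroblast sum rose from 62.5 to 80.9 CPM in cultured D2.1 cells to 620 to 1387 in D2.1 tumors, and its part in the ratios was not tested. In D2A1 cells it was 5.35 to 11.7 CPM in culture.

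Few of the genes differed between hosts by the test. In D2.1 tumors edgeR called 0 of 34 genes tested, where 0.891% of all genes tested were called (0.871% higher and 0.0201% lower in BALB/c mice). Of the 34, 5 had an unadjusted p under 0.05 by edgeR, beside 1489 of all 14929 genes tested. DESeq2 called 3, namely Apol6 and Adgrd1 higher and Rspo3 lower in BALB/c mice, with no share over all genes set beside them. In data simulated for this comparison 19.9% of DESeq2 calls were false, against 4.24% of edgeR calls. In D2A1 tumors 1 of 25 tested was called, lower in BALB/c mice, against 0.261% of all genes lower, 0.906% higher and 1.17% in either direction. With CPM scaled by TMM over the 18 tumors, none of the 37 had groups without overlap between hosts in D2.1 tumors, where 3.15% and 1.51% of the genes tested were higher or lower in BALB/c mice. Scaled over all 24 libraries, 2 did, Adgrd1 and Apol6, both higher in BALB/c mice. On either scaling 3 were higher and 1 lower without overlap in D2A1 tumors, where 3.16% and 2.17% of the genes tested were.

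The gene called was D630003M21Rik, an uncharacterized gene at chr2:158182533-158229222 (minus strand) that has an antisense gene within it. It lay outside the rule for named genes and was named after its values were seen. It had 94, 104, 167 and 82 counts in D2A1 BALB/c tumors and 330, 379, 472, 431 and 483 in D2A1 SCID-beige tumors, a log2 difference of -2.07 (adjusted p = 0.0087) with no overlap. D2.1 tumors had 4204, 4806, 4621 and 4008 counts in BALB/c and 3816, 4682, 3592, 1611 and 3623 in SCID-beige mice, which overlapped (0.35, adjusted p = 0.726). The difference between lines was accordingly larger in BALB/c mice, and the interaction of line and host was 2.39 on the log2 scale (adjusted p = 0.0173), where 0.0187% of 16036 genes were called and 1 of the 35 genes tested here. Without D2.1 BALB/c replicate 3 or 4 or D2A1 BALB/c replicate 1 or 4 the adjusted p was 0.054 to 0.0744, and without D2.1 BALB/c replicates 1 and 4 together it was 0.135.

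Apol6, of the apolipoprotein L family, which has similar copies and overlaps Mb on the opposite strand, had the largest other change between hosts in D2A1 tumors. It had 657, 427, 1662 and 653 counts in D2.1 BALB/c and 190, 445, 161, 235 and 275 in D2.1 SCID-beige tumors, and 109, 45, 52 and 123 and 9, 15, 8, 17 and 41 in D2A1 tumors. The hosts lay next to each other or overlapped in D2.1 tumors, depending on the scaling, and were apart in D2A1 tumors. The log2 differences of 1.70 and 2.02 did not pass the test by edgeR (adjusted p = 0.0665 and 0.0751). The former did without D2.1 BALB/c replicate 2 or D2.1 SCID-beige replicate 2 (adjusted p = 0.026 and 0.0436). The latter did without D2A1 SCID-beige replicate 5 (adjusted p = 0.0312), with no filter (0.0254) and in a fit of all tumors (0.0353). DESeq2 called both (adjusted p = 0.000863 and 0.00279). Apol6 was higher in D2.1 than in D2A1 tumors in both hosts, by 3.38 ± 0.47 and 3.73 ± 0.44 (adjusted p = 0.000407 and 2.61e-05). In SCID-beige mice Apol6 passed the filter through the D2.1 tumors alone, so its p-value there carries no weight of its own. T cell markers moved with the host as given above, with a part that was not tested.

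D2.1 SCID-beige replicate 4 lay at an end of the range of the D2.1 tumors in several of the genes. This tumor had the lowest CPM of the 9 D2.1 tumors in 13 of the 37 genes and the highest in 6. No count over all genes was made beside these, so they are not shown to be particular to the 37. It was lowest in D630003M21Rik (1611 counts), Podn (505), Fbln7 (726), Tnfsf12 (226) and Gstt1 (223), and highest in Krt13 (57), Rspo3 (48), Rtn4rl2 (174), Sema6a (643) and Pdlim4 (3477). The same tumor had the highest sum of mammary epithelial markers, 1199 CPM, and the lowest of fibroblast markers, 620 CPM, among D2.1 tumors. Without it, 27 genes were still higher in D2.1 SCID-beige tumors and 1 lower.

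The 37 genes lay on 16 chromosomes, with 5 on chromosome 10 (13.5%, beside 4.89% of the 10009 genes on in cultured D2.1 cells), 4 on chromosome 1 (10.8% beside 5.67%), 4 on chromosome 2 (10.8% beside 8.12%) and 0 next to another of the 37 as its nearest protein-coding neighbor. The median span was 23.6 kb, beside 24.9 kb for the 10009 genes on in cultured D2.1 cells, and the longest coding transcripts in GENCODE M21 had a median length of 3228 bases beside 3225. The first 250 bases of that transcript held a median of 12 CG dinucleotides, beside 19, with an observed over expected ratio of 0.535 beside 0.81. The ratio was under 0.6 in 20 of the 37, or 54.1%, and in 22.4% of the 10009 genes. Such shares depend on the genes set beside them. For the 250 bases upstream of RefSeq starts, a different stretch, 29.9% of promoters of genes on in cultured D2.1 cells were under 0.6. Over all promoters of that table it was 66%. All 37 had such a transcript, whereas the RefSeq promoter table matched 22 of the 37, too few for a share over promoters.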

How the data were processed

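RNA was sequenced from 6 libraries of cultured cells and 18 tumors, and groups were taken from the sample labels. Per the labels the authors deposited raw read counts per gene and FPKM values, with STAR and mm10 named in the submitters' processing notes. The aligner version, the counting tool and the strand setting are not given in the sources used here. The deposited counts were used for every test, and the deposited FPKM, scaled by the authors to gene length and depth, only to order genes within a table. The culture and tumor tables shared 34519 genes and used different gene lengths, with a median tumor over culture length of 0.592. Precision is set by library totals of 13566949 to 24818234 counts.

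The genes and lists were chosen with earlier results of these data known. Counts were scaled with TMM over all 24 libraries for CPM, and over the 18 tumors where the overlap of tumor groups was counted. For each comparison, genes were filtered with filterByExpr and tested with edgeR 4.0.16 (quasi-likelihood test, robust, Benjamini-Hochberg adjusted p under 0.05) in R 4.3.3. The comparisons were D2.1 against D2A1 tumors in each host, BALB/c against SCID-beige in each line, and their interaction. The SE of a log2 fold change is its size over the square root of F. Scripts were tested on simulated data, where 2.34% to 6.4% of edgeR calls and 10.8% to 24.3% of DESeq2 calls were false. Calls made by DESeq2 alone are thus less certain. Alternatives were DESeq2 1.42.0, other size factors and filters, a fit of all tumors, a replicate block and each library left out. Leaving out D2.1 BALB/c replicates 1 and 4 together, overlap with CPM scaled over all 24 libraries, and the alternatives for genes on in D2.1 tumors, were chosen after seeing the data. Positions are from GENCODE M21 (GRCm38) and upstream sequences from RefSeq.

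Genes were named by rule, with symbols ending in Rik counted and not named: the highest by FPKM on in D2A1 tumors, the lowest and highest by the ratio of tumor to culture, those called between hosts or lower in D2.1 tumors, the leading 3 of each role list, and the 3 nearest on each side of each threshold. Others, D630003M21Rik included, were named after their values were seen, among them the 6 with the widest gap between lines. Replicates were compared in pairs and none were copies of another. The results of 1 gene are counted and are not reported here by name.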

Additional observations from a re-analysis of the deposited data

Results flagged for a closer look

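In 16 of 141 combinations of a gene and a tumor group, a single tumor lay further from the others than Dixon's test at 95% allows, and chance alone flags about 1 in 20 groups. All values here are TMM-normalized CPM. In D2.1 BALB/c tumors, Edil3 was low in replicate 3 (19.6, others 55.0 to 60.5), Lhx9 and P2ry1 were high in replicate 2 (57.9, others 20.4 to 26.7, and 32.7, others 15.4 to 16.3), Rtl8a and Rspo3 were high in replicate 4 (13.8, others 7.15 to 7.95, and 0.436, others 0 to 0.0572), and Slc45a1 was seen in replicate 1 alone (0.315). In D2.1 SCID-beige tumors, Krt13 was high in replicate 4 (3.31, others 0.058 to 0.447), Pappa and Slc45a1 in replicate 5 (10.2, others 1.74 to 3.72, and 0.447, others 0 to 0.058), and Rtl5 was low in replicate 3 (7.95, others 15.7 to 18.2).

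In D2A1 BALB/c tumors, Lama4 was high in replicate 2 (65.7, others 46.2 to 49.1). In D2A1 SCID-beige tumors, Rab38 and Lhx9 were high in replicate 2 (0.735, others 0 to 0.204, and 0.534, others 0 to 0.123), Robo2 in replicate 3 (0.544, others 0 to 0.136), Pappa in replicate 4 (1.91, others 0.802 to 1.02) and Apol6 in replicate 5 (2.52, others 0.544 to 1.05).

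The difference between lines in D630003M21Rik differed between hosts, with an interaction of 2.39 on the log2 scale (adjusted p = 0.0173 by edgeR).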

How the results depend on the processing

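The number of genes depended on the limit for being on: 60 genes met the choice at 30 counts and 14 at 100. With a floor of 10 counts in tumors 2 genes were on in D2.1 and at the floor in D2A1 tumors and 1 was at the floor in D2.1 tumors, and with on at 100 counts 4 were on in D2A1 tumors. Genes called lower in D2.1 BALB/c tumors numbered 2 with DESeq2 (Il1rn and Krt13), 2 with a fit of all tumors, 1 without D2.1 BALB/c replicates 1 and 4 together (Mlph), and 0 to 1 with each library left out. Between hosts, DESeq2 called 3 genes in D2.1 and 5 in D2A1 tumors, no filter gave 2 and a fit of all tumors 3 in D2A1 tumors, and leaving out each library gave 0 to 1 in D2.1 and 1 to 2 in D2A1 tumors. The interaction was called in 0 to 1 genes with each library left out and in 0 without D2.1 BALB/c replicates 1 and 4. Genes called higher in D2.1 tumors numbered 27 to 28 in each host with each library left out, and 25 in BALB/c mice without replicates 1 and 4. Shares over all genes were not set beside the counts of this paragraph.

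Directions turned only in genes that were not called: without D2.1 BALB/c replicates 1 and 4 in Adgrd1 (-0.15), Rtl8a (-0.21) and Rtn4rl2 (-0.47) in BALB/c mice, and with each library left out in Rtl8a (-0.21 to 0.29, BALB/c) and Pi15 (-0.12 to 0.48, SCID-beige). The causes were not tested.

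Replicate numbers were not taken to pair the samples, since not every pair's deviations correlated above 0.1: correlations ran from 0.0899 to 0.464 (3 of 4 pairs above) and -0.142 to 0.263 (4 of 5) between lines in BALB/c and SCID-beige mice, and from -0.183 to 0.159 (1 of 4) and -0.374 to -0.159 (0 of 4) between hosts in D2.1 and D2A1 tumors. With the replicate number as a block, 28 genes were higher and 1 lower (Il1rn) in BALB/c mice, 27 and 1 in SCID-beige mice, 0 differed between hosts in either line, and 1 had an interaction. With it AB124611 (0.74, adjusted p = 0.0124) and Il1rn (-1.05, adjusted p = 0.00796) were called in BALB/c mice, and D630003M21Rik was not between hosts in D2A1 tumors (adjusted p = 0.231). The filter left genes of a few counts, such as Slc45a1 and Rspo3, out of the comparison of lines, and with no filter or with DESeq2 29 genes were higher in D2.1 SCID-beige tumors.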

Other observations

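A single gene of another type met the same limits in culture, the long intergenic RNA 4930461G14Rik, with 0, 1 and 1 counts in cultured D2A1 cells and 66, 51 and 65 in cultured D2.1 cells. It had 0, 0, 1 and 0 counts in D2.1 BALB/c tumors and 0 in all 5 D2.1 SCID-beige tumors, and 0, 0, 1 and 0 and then 0 in all 5 in D2A1 tumors. It was named after its values were seen.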
